A study of Mus musculus with 11 samples.

Results

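The genes described here are the 10 that encode the core of H3K9 methylation and its HP1 readers: the corepressor gene Trim28, the H3K9 methyltransferase genes Setdb1, Ehmt1, Ehmt2, Suv39h1 and Suv39h2, the SETDB1 cofactor gene Atf7ip, and the HP1 genes Cbx1, Cbx3 and Cbx5. They were chosen by name, with earlier results of these data known, and all 10 were found among the 55291 gene rows of the deposited count table. Their transcripts were measured by RNA-seq in mouse embryonic stem (ES) cells of the E14 line, in 10 libraries of 3 kinds. Cells of the tagged lines 10E and 11D carry SPT16, a subunit of the histone chaperone FACT, fused at its C-terminus to V5 and to AID, an auxin-inducible degron through which indole-3-acetic acid (IAA) can direct a protein to degradation. Each tagged line is 1 targeted clone per the labels. The tagged EtOH group (4 libraries, 2 per line) received the solvent ethanol, the tagged IAA group (3 libraries, 1 of 10E and 2 of 11D) received 500 nM IAA, and the untagged IAA group (3 libraries in columns coded TIR1, taken as the untagged line) received 500 nM IAA without the SPT16 tag, each for 24 hours. All groups grew without feeder cells in serum medium with LIF, 3 µM of a GSK3 inhibitor and 1 µM of a MEK inhibitor. No untagged EtOH library was analysed here, so line, tag and treatment cannot be told apart between the untagged group and the tagged EtOH group. The series title asks about pluripotency factors, and the silencing genes were read from the same libraries.

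As background, H3K9 methylation marks silent chromatin. In ES cells KRAB zinc finger proteins bind transposon and imprinted sequences and bring TRIM28, also called KAP1, which recruits SETDB1, and ATF7IP keeps SETDB1 stable in the nucleus. EHMT1 and EHMT2 form a heterodimer that sets H3K9 mono- and dimethylation in euchromatin. SUV39H1 and SUV39H2 set the trimethylation of pericentromeric repeats. The HP1 proteins bind the methylated lysine through a chromodomain: CBX1 is HP1β, CBX3 is HP1γ and CBX5 is HP1α.

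The libraries held 3100127 to 13510163 counts. Levels below are CPM, counts scaled to library size with TMM factors, given as mean ± SD over libraries. Supt16, which encodes the tagged protein, was at 388 ± 21.3 CPM in tagged EtOH (n = 4), at 273 ± 17.4 CPM in tagged IAA (n = 3) and at 556 ± 19.6 CPM in the untagged libraries (n = 3); the degron acts on the protein, so a transcript level does not check its depletion. Rpgrip1, on the other strand, shares 21.0% of the exon length of Supt16. All 6 ES cell markers (Pou5f1, Sox2, Nanog, Esrrb, Zfp42 and Klf4) passed the test as lower in IAA than in EtOH within the tagged lines, with a summed level of 3119 to 4495 CPM with EtOH, 1168 to 1280 CPM with IAA and 3591 to 3819 CPM in the untagged libraries. Summed levels of the 6 fibroblast markers were 21.6 to 34.2, 14.6 to 19.0 and 22.1 to 28.6 CPM in the same order, with Postn at 0 in every library. Those of the 4 primitive endoderm markers were 1.61 to 6.28, 3.35 to 5.90 and 2.51 to 4.16 CPM, those of the 4 trophoblast markers 42.2 to 59.0, 33.9 to 41.2 and 40.2 to 44.4 CPM, and those of the 4 neural markers 26.1 to 36.4, 19.7 to 46.6 and 13.2 to 25.7 CPM. Single markers within these sums passed the edgeR test for IAA against EtOH. Neurod1 was at 0.860 ± 0.520 CPM with EtOH and 9.74 ± 2.62 with IAA (FDR = 1.3e-06), and Pax6 was also higher (FDR = 0.032), while Tubb3 (FDR = 0.011), Eomes (6.6e-05), Tfap2c (0.032) and Pdgfrb (3.0e-04) were lower; the exons of Neurod1 and Eomes overlap those of another gene. Mitochondrial transcripts took 2.45% to 3.16% of the counts of the tagged IAA libraries, above the 1.67% to 2.26% of the EtOH libraries, and 2.28% to 2.73% in untagged cells. The ES cell markers, the single markers named and the mitochondrial share thus moved with the IAA differences given below, and their part in them was not tested. In these bulk libraries fewer cells of a type and less RNA per cell cannot be told apart.

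The promoters of the 4 genes with the largest fitted drops in IAA, Cbx3, Cbx5, Trim28 and Cbx1, are printed with that of Suv39h2. Suv39h2 was the only one of the 10 genes with a positive fold change under the TMM scaling used here. That positive value did not pass the test, and Suv39h1, not printed, was not called either. Each sequence runs 5′ to 3′ on the strand of its gene, from 250 bases before to 50 bases after a RefSeq start site (GRCm38.p6), and capitals mark matches to a motif searched on both strands.
Cbx1, chr11:96788885-96789184, plus strand: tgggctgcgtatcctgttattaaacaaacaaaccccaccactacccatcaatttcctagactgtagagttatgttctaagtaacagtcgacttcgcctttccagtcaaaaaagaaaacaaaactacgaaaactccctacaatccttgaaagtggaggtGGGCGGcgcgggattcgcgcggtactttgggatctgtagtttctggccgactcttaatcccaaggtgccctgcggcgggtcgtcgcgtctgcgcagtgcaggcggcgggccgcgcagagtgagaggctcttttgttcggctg
Cbx3, chr6:51470366-51470665, plus strand, start site 1: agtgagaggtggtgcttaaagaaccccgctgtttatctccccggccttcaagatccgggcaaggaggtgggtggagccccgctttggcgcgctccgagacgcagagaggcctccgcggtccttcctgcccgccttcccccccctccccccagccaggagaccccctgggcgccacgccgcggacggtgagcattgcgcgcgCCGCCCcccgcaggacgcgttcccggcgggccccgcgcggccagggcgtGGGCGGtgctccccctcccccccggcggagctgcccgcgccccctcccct
Cbx5, chr15:103239803-103240102, minus strand, start site 1: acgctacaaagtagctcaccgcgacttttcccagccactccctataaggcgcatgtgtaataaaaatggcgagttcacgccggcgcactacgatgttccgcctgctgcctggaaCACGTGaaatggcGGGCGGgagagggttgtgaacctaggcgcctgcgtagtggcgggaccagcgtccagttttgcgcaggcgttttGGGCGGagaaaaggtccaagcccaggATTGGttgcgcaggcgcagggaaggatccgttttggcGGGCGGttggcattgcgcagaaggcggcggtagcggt
Trim28, chr7:13023902-13024201, plus strand: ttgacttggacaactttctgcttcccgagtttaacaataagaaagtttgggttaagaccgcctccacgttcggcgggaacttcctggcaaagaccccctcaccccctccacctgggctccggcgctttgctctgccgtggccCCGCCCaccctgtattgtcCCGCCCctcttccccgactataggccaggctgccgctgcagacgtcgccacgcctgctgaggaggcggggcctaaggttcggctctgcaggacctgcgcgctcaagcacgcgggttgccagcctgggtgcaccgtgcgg
Suv39h2, chr2:3474937-3475236, minus strand: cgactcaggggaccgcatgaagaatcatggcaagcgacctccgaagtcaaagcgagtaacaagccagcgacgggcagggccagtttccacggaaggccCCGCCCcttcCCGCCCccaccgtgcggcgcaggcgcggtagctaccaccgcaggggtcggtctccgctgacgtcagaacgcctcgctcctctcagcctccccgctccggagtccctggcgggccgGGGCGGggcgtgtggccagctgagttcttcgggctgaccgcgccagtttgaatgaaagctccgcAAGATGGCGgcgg

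All 10 genes matched the RefSeq promoter table, with 14 start sites in all. The GC box GGGCGG was found at 13 of the 14 start sites and for all 10 genes, while 35.7% of all 32851 mouse promoters of this length hold it. Among the printed promoters, Cbx5 and Suv39h2 held 3 GC boxes each, Trim28 and Cbx3 2 each, and Cbx1 1, so the match does not separate the genes that fell from Suv39h2. The other capitals are an E box CACGTG and a CCAAT box (read as ATTGG on the gene's strand) in Cbx5 and the YY1 motif AAGATGGCG in Suv39h2. Over the 14 start sites, CCAAT was found at 4, in 4 genes (37.4% of all promoters), and CACGTG at 3, in 2 genes (7.15%). AAGATGGCG was found at 2, in 2 genes (1.4%), and the ETS motif CCGGAAG at 1 (8.86%). The NRF1 motif CGCATGCG (1.87% of all promoters) and the TATA box TATAAA (13.6%) were found for 0 of the 10, which says only that these letters are not in these windows. None of the motifs contains another. The members' promoters had a GC content of 52.7% to 82.7%, against a median of 52.7% over all promoters.

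**Figure D1:**
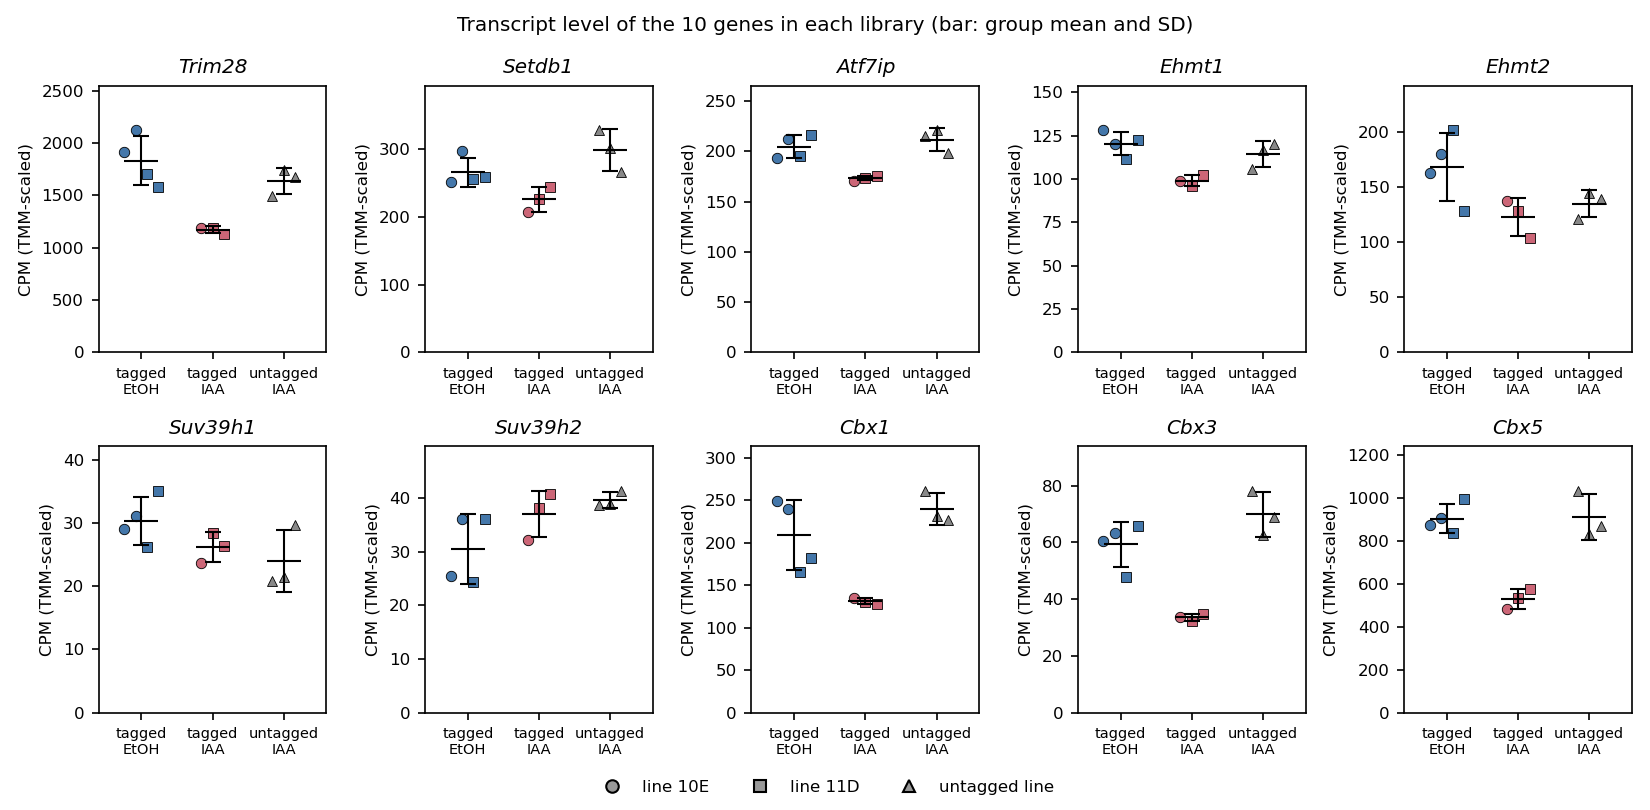
Transcript level of each of the 10 genes, in TMM-scaled CPM, with 1 point per library (circles, line 10E; squares, line 11D; triangles, untagged line) for tagged EtOH, tagged IAA and untagged IAA. Bars give the group mean and SD; each vertical axis starts at 0 and has its own range. The tagged IAA libraries sit below every tagged EtOH library for 7 genes, among them Trim28, Cbx1, Cbx3 and Cbx5.

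The 10 genes differed widely in level. For comparison between genes, levels were also taken as CPM per kb of exon. The length used was that of all annotated exons of a gene merged, 4158 bases for Trim28 and 20726 for Atf7ip. It can exceed the length of the expressed transcripts, so the order rests partly on the annotation. On this scale Trim28 stood highest in tagged EtOH at 441 ± 56.8 (SD, n = 4), followed by Cbx5 at 100.3 ± 7.40, Cbx1 at 49.0 ± 9.67 and Setdb1 at 38.8 ± 3.11. Ehmt2 was at 30.7 ± 5.62, Ehmt1 at 14.9 ± 0.835, Cbx3 at 9.90 ± 1.31, Atf7ip at 9.87 ± 0.566, Suv39h2 at 6.92 ± 1.47 and Suv39h1 at 5.76 ± 0.717. The corepressor that many KRAB proteins share was thus measured far above each methyltransferase gene, and the SUV39H genes were the lowest. In this order the libraries of Cbx1 and Setdb1, of Setdb1 and Ehmt2, of Cbx3 and Atf7ip, and of Suv39h2 and Suv39h1 overlapped, so these neighbours were not separated by their spread; all other neighbours were. Counts behind the levels ran from 4175 to 21475 for Trim28, but from 78 to 629 for Suv39h2 and from 84 to 408 for Suv39h1, so the SUV39H values are the least precise. The level of Cbx3 may be too low, since reads that also match its pseudogenes may not have been counted.

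After IAA, 8 of the 10 genes fell in the tagged lines and none rose under TMM scaling. Trim28 and the 3 HP1 genes fell most, by 0.61 to 0.82 on the log2 scale. Setdb1, Atf7ip, Ehmt1 and Ehmt2 fell by 0.24 to 0.44. Suv39h1 and Suv39h2 did not pass the test. The count of 8 was 5 without 10E IAA replicate 1, 11D EtOH replicate 2, 11D IAA replicate 1 or 11D IAA replicate 2, and 4 with a minimum of 10 counts in every library. With library totals in place of TMM factors 4 genes were lower and 1, Suv39h2, was higher. The test was edgeR's quasi-likelihood F test with a term for line over the 7 tagged libraries, and a gene is called where its Benjamini-Hochberg adjusted p (false discovery rate, FDR) over all 17904 genes tested is under 0.05. Over all genes tested, 28.1% were called lower and 29.3% higher, and the median log2 fold change was 0.03. The median over the 10 members was -0.36, and 9 of the 10 values were negative. No member was called higher: the count was 0 by edgeR, also at an unadjusted p under 0.05, and DESeq2 called 0 higher and 6 lower. Each of the 3 IAA libraries was below all 4 EtOH libraries for 7 members and above all of them for 0; over all genes tested these shares were 25.1% and 27.4%.

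Trim28 (chromosome 7, 12999114 to 13031035, plus strand, in the GENCODE vM21 annotation of GRCm38) encodes the corepressor. It was at 1913 and 2122 CPM in 10E EtOH and 1709 and 1584 CPM in 11D EtOH, at 1189 CPM in 10E IAA and 1190 and 1131 CPM in 11D IAA, and at 1496, 1740 and 1672 CPM in untagged IAA. All 3 tagged IAA libraries lay below the other 7 libraries, and they lay close together, at 1170 ± 33.6 CPM (n = 3), while the EtOH libraries spread over 1832 ± 236 CPM (n = 4). The fold change of IAA against EtOH was -0.61 ± 0.10 (log2, SE; edgeR FDR = 1.2e-04).

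Setdb1 (chromosome 3, 95323525 to 95357202, minus strand), whose enzyme trimethylates H3K9 at TRIM28-bound sites, had 251 and 297 CPM in 10E EtOH, 256 and 258 CPM in 11D EtOH, 208 CPM in 10E IAA, 226 and 245 CPM in 11D IAA and 328, 301 and 267 CPM in untagged IAA. The highest IAA library and the lowest EtOH library were only a few CPM apart, although they did not overlap. Its log2 fold change was -0.24 ± 0.10 (edgeR FDR = 0.042). This call was lost with DESeq2 (FDR = 0.094), with another way of computing edgeR's scale factors (RLE, FDR = 0.082), and in 5 of the 7 fits that left out 1 library: without 10E EtOH replicate 2 (edgeR FDR = 0.12), 10E IAA replicate 1 (0.38), 11D EtOH replicate 2 (0.057), 11D IAA replicate 1 (0.088) and 11D IAA replicate 2 (0.055).

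Atf7ip (chromosome 6, 136506167 to 136610862, plus strand), the SETDB1 cofactor gene, was at 193 and 212 CPM in 10E EtOH and 196 and 217 CPM in 11D EtOH, and at 171 CPM in 10E IAA, 174 and 175 CPM in 11D IAA and 215, 221 and 199 CPM in untagged IAA. The IAA libraries were the 3 lowest of the 10. Its log2 fold change was -0.25 ± 0.09 (edgeR FDR = 0.020), a small drop that DESeq2 left just above the threshold (FDR = 0.052). The edgeR call was also lost without 10E EtOH replicate 2 (FDR = 0.057), 10E IAA replicate 1 (0.077), 11D EtOH replicate 2 (0.095), 11D IAA replicate 1 (0.055) or 11D IAA replicate 2 (0.085).

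The genes of the EHMT heterodimer were both called lower, and neither call held in every alternative setting. Ehmt1 (chromosome 2, 24789928 to 24919614, minus strand) had 128 and 120.0 CPM in 10E EtOH, 112 and 122 CPM in 11D EtOH, 99.1 CPM in 10E IAA, 95.8 and 102 CPM in 11D IAA and 106, 117 and 120.0 CPM in untagged IAA. Every tagged IAA library was the lower, and the log2 fold change was -0.28 ± 0.09 (edgeR FDR = 0.016). That call was lost without 10E IAA replicate 1 (edgeR FDR = 0.089), 11D EtOH replicate 2 (0.060) or 11D IAA replicate 1 (0.052). Ehmt2 (chromosome 17, 34898469 to 34914052, plus strand) had 162 and 180.4 CPM in 10E EtOH, 201 and 128 CPM in 11D EtOH, 137 CPM in 10E IAA, 128 and 104 CPM in 11D IAA and 121, 144 and 139 CPM in untagged IAA. Here the groups overlapped: 11D EtOH replicate 2 was below 10E IAA. The fitted log2 fold change was -0.44 ± 0.13 (edgeR FDR = 0.0098). The highest Ehmt2 levels were in 10E EtOH replicate 2 and 11D EtOH replicate 1, the EtOH libraries in which the transcript CT010467.1 took the largest shares of the counts (2.64% and 4.27%). Without both of them the fold change was -0.22 (edgeR FDR = 0.11), and the call was also lost without 11D EtOH replicate 1 (FDR = 0.059) or 11D IAA replicate 2 (FDR = 0.099).

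Suv39h1 and Suv39h2, the 2 paralogs that maintain pericentromeric H3K9 trimethylation, were the members without a call. Suv39h1 (chromosome X, 8061171 to 8074760, minus strand) was at 29.1 and 31.1 CPM in 10E EtOH, 26.1 and 35.1 CPM in 11D EtOH, 23.7 CPM in 10E IAA, 28.5 and 26.4 CPM in 11D IAA and 20.8, 21.4 and 29.6 CPM in untagged IAA, with overlap between all 3 groups. Its log2 fold change was -0.26 ± 0.14 (edgeR FDR = 0.11), with a 95% interval of -0.56 to 0.03; without 11D EtOH replicate 1 it passed (FDR = 0.030). Suv39h2 (chromosome 2, 3455815 to 3475031, minus strand) was at 25.5 and 36.1 CPM in 10E EtOH, 24.3 and 36.1 CPM in 11D EtOH, 32.2 CPM in 10E IAA, 38.2 and 40.7 CPM in 11D IAA and 38.6, 38.9 and 41.4 CPM in untagged IAA. The first replicate of each line was low in EtOH, and the second lay within the range of the IAA libraries. The log2 fold change of Suv39h2 was 0.23 ± 0.16 (edgeR FDR = 0.23), with a 95% interval of -0.11 to 0.56. Reads of other genes could have been counted with both, since the strand setting of the counting is not given: the antisense gene Gm14820 shares 14.6% of the exon length of Suv39h1, and Dclre1c on the other strand shares 8.10% of that of Suv39h2. For Setdb1, Ehmt1 and Atf7ip such overlaps took at most 3.63% per partner, and Trim28, Ehmt2 and the HP1 genes had none.

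The HP1 genes fell together. Cbx1 (chromosome 11, 96789127 to 96808640, plus strand) had 249 and 240.1 CPM in 10E EtOH, 166 and 182 CPM in 11D EtOH, 135 CPM in 10E IAA, 131 and 128 CPM in 11D IAA and 262, 232 and 227 CPM in untagged IAA. The 3 tagged IAA libraries agreed closely, and the EtOH libraries of 10E stood above those of 11D. The log2 fold change of Cbx1 was -0.61 ± 0.10 (edgeR FDR = 1.1e-04). Cbx3 (chromosome 6, 51470360 to 51483704, plus strand) was at 60.5 and 63.1 CPM in 10E EtOH, 47.9 and 65.6 CPM in 11D EtOH, 33.8 CPM in 10E IAA, 32.2 and 34.7 CPM in 11D IAA and 78.2, 62.5 and 68.9 CPM in untagged IAA. No tagged IAA library reached the lowest of the other 7, and Cbx3 had the largest fitted drop of the 10 genes, -0.82 ± 0.12 (edgeR FDR = 3.9e-05). Cbx3 has 11 processed pseudogenes at 90% identity or more over at least 200 bases, so how its reads were assigned is uncertain. Summed counts of the pseudogenes were 0.216% to 3.59% of those of Cbx3 and the pseudogenes together. The noncoding gene Gm49164 (99.8% over 608 bases) and the protein-coding Als2cr12 (99.4% over 319 bases) also match Cbx3. Both were left out of that sum. Cbx5 (chromosome 15, 103191544 to 103239816, minus strand) was at 874 and 906 CPM in 10E EtOH, 838 and 994 CPM in 11D EtOH, 481 CPM in 10E IAA, 535 and 576 CPM in 11D IAA and 1034, 831 and 872 CPM in untagged IAA. Its tagged IAA levels were again below all others, with a log2 fold change of -0.80 ± 0.10 (edgeR FDR = 5.7e-06).

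**Figure D2:**
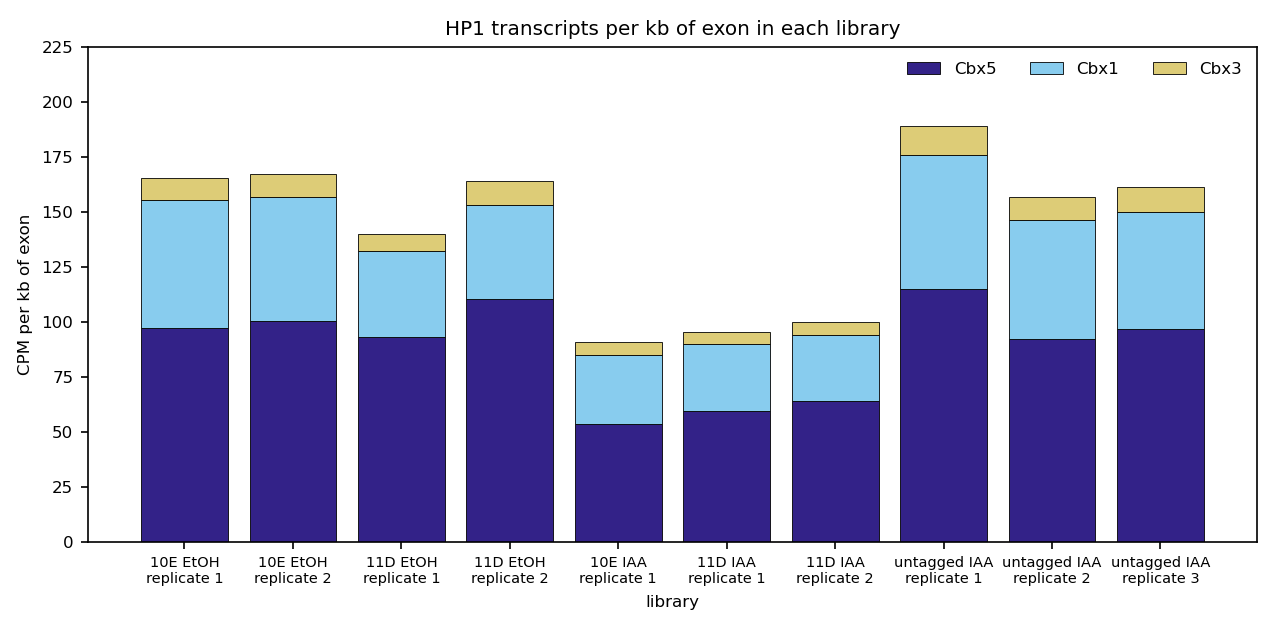
Stacked bars of the Cbx5, Cbx1 and Cbx3 levels in each of the 10 libraries, in CPM per kb of exon, so that the height of a bar is the summed HP1 level. The 3 tagged IAA bars are between 90.6 and 99.7, and the lowest of the other 7 is at 140.0. Reads that also match Cbx3 pseudogenes may be missing from the Cbx3 part.

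Summed per kb of exon, the 3 HP1 genes were at 159 ± 12.9 CPM per kb in tagged EtOH (n = 4), at 95.2 ± 4.54 in tagged IAA (n = 3) and at 169 ± 17.5 in the untagged libraries (n = 3). The shares below rest on annotated exon lengths. Reads of Cbx3 that also match its pseudogenes may be missing, which would lower its share and raise the others. As measured, Cbx5 made up most of the sum in every library. It took 63.1% ± 4.39 of the sum in tagged EtOH, 61.8% ± 2.63 after IAA and 59.8% ± 0.984 in the untagged libraries. Cbx1 contributed 30.7% ± 4.45, 32.3% ± 2.40 and 33.3% ± 1.16 in the same order, and Cbx3 contributed 6.20% ± 0.401, 5.89% ± 0.299 and 6.90% ± 0.242. Over both lines the shares of tagged EtOH and tagged IAA overlapped for all 3 genes, but for Cbx1 and Cbx5 the EtOH libraries of the lines stood apart. In 11D, Cbx5 took 66.5% and 67.3% with EtOH and 62.3% and 64.2% with IAA, and Cbx1 took 27.8% and 26.0% with EtOH and 32.1% and 30.0% with IAA, without overlap. In 10E, Cbx5 took 58.7% and 60.1% with EtOH and 59.0% with IAA, and Cbx1 took 35.2% and 33.6% with EtOH and 34.8% with IAA, which lies within the EtOH values. The difference between the lines in these shares was not tested.

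Ratios of 2 genes within a library do not depend on how libraries are scaled. The 7 ratios were examined with exact two-sided permutation tests over the 3 tagged IAA and 4 tagged EtOH libraries, without a term for line. The smallest possible p is 0.029, and none passed after Benjamini-Hochberg adjustment. A single ratio that reached the smallest p would have an adjusted p of 0.20, so the number of libraries all but fixed this outcome. The log2 ratio of Trim28 to Setdb1 was 2.93 and 2.83 in 10E EtOH, 2.74 and 2.61 in 11D EtOH, 2.52 in 10E IAA and 2.39 and 2.21 in 11D IAA. These groups did not overlap, and the mean was 2.78 ± 0.13 (SD, n = 4) in EtOH and 2.37 ± 0.16 (n = 3) in IAA, a difference of -0.41 (exact permutation p = 0.029, the smallest these libraries can give; adjusted p = 0.20). Each IAA library thus held fewer Trim28 reads per Setdb1 read than each EtOH library. In untagged IAA this ratio was 2.45 ± 0.24 (n = 3): of its libraries, at 2.19, 2.53 and 2.65, 1 lay below every tagged library, 1 between the tagged groups and 1 within the EtOH range.

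The log2 ratio of Suv39h1 to Suv39h2 was 0.18 and -0.21 in 10E EtOH, 0.10 and -0.04 in 11D EtOH, -0.44 in 10E IAA and -0.42 and -0.62 in 11D IAA. The paralogs were near-equal in EtOH, and Suv39h2 was above Suv39h1 in each IAA library, without overlap between the groups; the difference was -0.50 (exact permutation p = 0.057, adjusted p = 0.20). The untagged IAA libraries had -0.88, -0.85 and -0.47, within or below the range of the tagged IAA libraries, so a low ratio was also measured in cells without the SPT16 tag. For the remaining ratios the groups overlapped over both lines. The IAA minus EtOH difference was 0.16 for Ehmt1 to Ehmt2 (exact permutation p = 0.49), 0.01 for Setdb1 to Atf7ip (p = 0.91), -0.15 for Cbx3 to Cbx1 (p = 0.40), -0.12 for Cbx5 to Cbx1 (p = 0.54) and 0.03 for Cbx5 to Cbx3 (p = 0.74). In 11D, Cbx5 to Cbx1 was 2.33 and 2.44 with EtOH and 2.03 and 2.17 with IAA. Cbx3 to Cbx1 was -1.78 and -1.47 with EtOH and -2.005 and -1.87 with IAA there. In 10E the IAA library lay between the EtOH values for both ratios. The difference between the lines in these ratios was not tested.

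**Figure D3:**
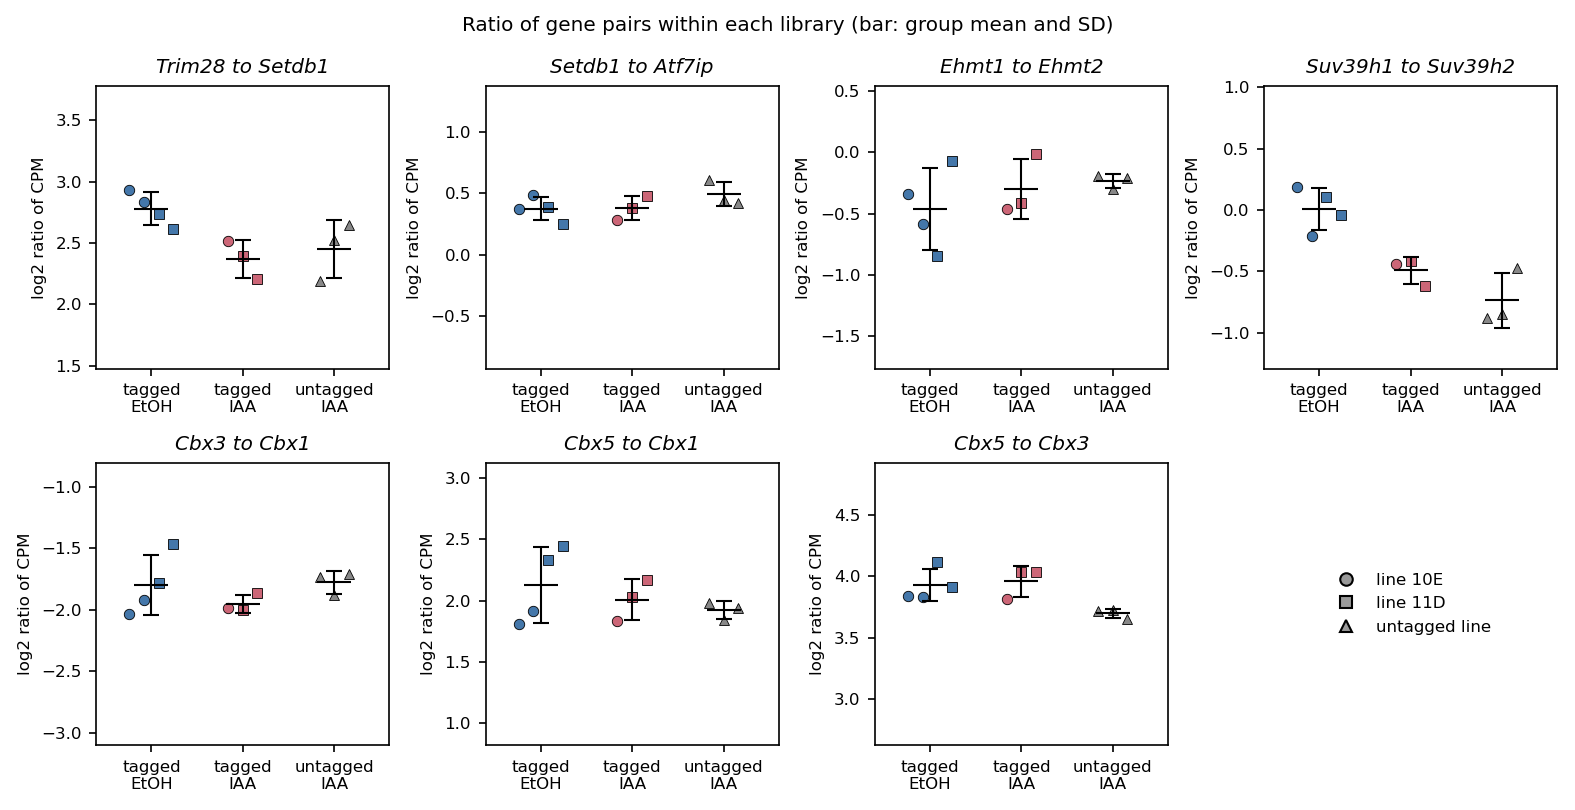
Log2 ratio of CPM for 7 gene pairs within each library, by group, with circles for line 10E, squares for line 11D and triangles for the untagged line; bars give the group mean and SD. For Trim28 to Setdb1 and for Suv39h1 to Suv39h2 the tagged IAA points lie below all tagged EtOH points, and for the other 5 pairs they overlap.

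Within each tagged line, fitted with 1 coefficient per line and treatment, Trim28 and the 3 HP1 genes were called lower. These fits split the same 7 tagged libraries, so their values are not independent of the fit over both lines. In line 10E, where 18.3% of all genes were called lower and 17.1% higher, 5 members were called lower and 0 higher: Trim28 (-0.78 ± 0.16, edgeR FDR = 0.0020), Setdb1 (-0.41 ± 0.14, FDR = 0.035), Cbx1 (-0.87 ± 0.14, FDR = 3.8e-04), Cbx3 (-0.89 ± 0.21, FDR = 0.0048) and Cbx5 (-0.90 ± 0.16, FDR = 7.1e-04). Line 10E has 1 IAA library, which is assumed to vary like the other groups. In line 11D, where 23.1% were called lower and 23.1% higher, 5 members were called lower and 0 higher: Trim28 (-0.51 ± 0.12, edgeR FDR = 0.0046), Ehmt2 (-0.51 ± 0.18, FDR = 0.030), Cbx1 (-0.44 ± 0.11, FDR = 0.0051), Cbx3 (-0.78 ± 0.16, FDR = 0.0015) and Cbx5 (-0.73 ± 0.12, FDR = 3.5e-04). At an unadjusted p under 0.05, 0 members were higher in either line, and DESeq2 called 0 higher, with 4 lower in 10E and 5 in 11D. In 10E the Setdb1 call was lost without 10E EtOH replicate 2 (edgeR FDR = 0.20), 11D IAA replicate 1 (0.061) or 11D IAA replicate 2 (0.081), whose spread is shared with 10E in the fit. In 11D the Ehmt2 call was lost without 11D EtOH replicate 1 (edgeR FDR = 0.35) and the Cbx1 call without 11D EtOH replicate 2 (0.054). Without 11D IAA replicate 2 the 11D count was 2 (Cbx3 and Cbx5), and Trim28 (edgeR FDR = 0.092), Ehmt2 (0.31) and Cbx1 (0.077) were lost.

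A larger drop in one line is not a difference between lines unless the interaction is tested. The line by treatment interaction called 0 members and 0 of 17904 genes by edgeR (0.0% higher and 0.0% lower); 872 genes and 1 member had an unadjusted p under 0.05, and DESeq2 called 1 gene, which was no member. That member was Cbx1, whose drop was larger in 10E than in 11D by 0.44 ± 0.17 as fitted (log2 difference -0.44, 95% interval -0.81 to -0.06; edgeR unadjusted p = 0.025, FDR = 0.94). In the Cbx1 levels given above, the IAA libraries of the lines were close to each other, and the EtOH libraries stood apart. In EtOH alone, where 1.28% of genes were called higher in 10E than in 11D and 1.95% lower, Cbx1 was the 1 member called, higher in 10E by 0.50 ± 0.11 (edgeR FDR = 0.025). No member was lower there (0 by edgeR, 0 with an unadjusted p under 0.05, 0 with DESeq2). The Cbx1 call was lost without 10E EtOH replicate 1 (edgeR FDR = 0.093), 11D EtOH replicate 1 (0.071), 11D EtOH replicate 2 (0.095), 11D IAA replicate 1 (0.057) or 11D IAA replicate 2 (0.075).

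**Figure D4:**
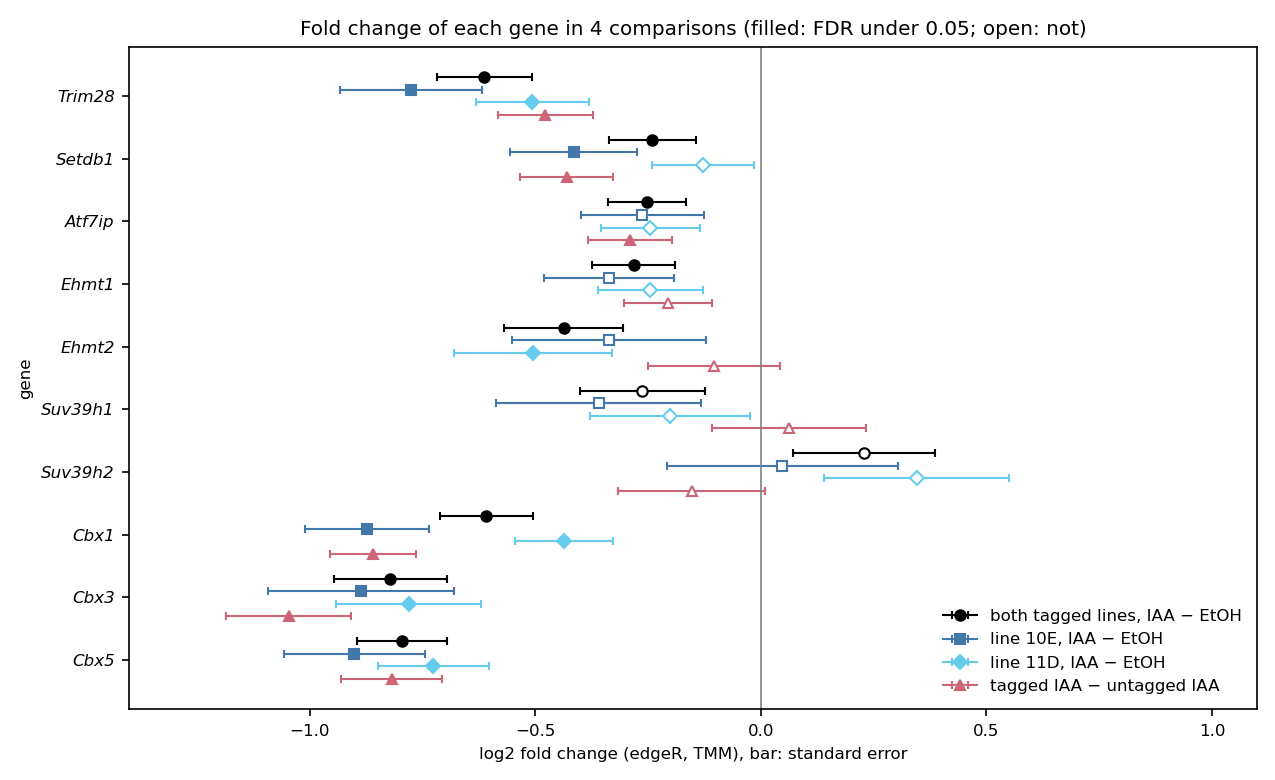
Log2 fold change (edgeR, TMM factors) of each gene, with its standard error, for IAA against EtOH in both tagged lines, in line 10E and in line 11D, and for tagged IAA against untagged IAA. Filled symbols passed an FDR of 0.05 and open ones did not; the symbols of Trim28, Cbx1, Cbx3 and Cbx5 are filled in all 4 comparisons.

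Set against untagged cells that also received IAA, the tagged IAA libraries were lower for 6 of the 10 genes and higher for 0. Over all 17439 genes tested, 27.8% were called lower and 27.9% higher. This comparison uses the same tagged IAA libraries as the one with EtOH, so the values stand side by side and are not independent. Cbx3 was lower by 1.05 (log2 fold change -1.05 ± 0.14, edgeR FDR = 1.4e-05), Cbx1 had -0.86 ± 0.10 (FDR = 2.3e-06), Cbx5 -0.82 ± 0.11 (FDR = 1.9e-05), Trim28 -0.48 ± 0.10 (FDR = 0.0012), Setdb1 -0.43 ± 0.10 (FDR = 0.0025) and Atf7ip -0.29 ± 0.09 (FDR = 0.015). The 3 HP1 genes had the largest fitted drops of the 10 in this comparison. The call of Atf7ip was lost without untagged IAA replicate 2 (edgeR FDR = 0.072). Ehmt1 (-0.21 ± 0.10, edgeR FDR = 0.085), Ehmt2 (-0.10 ± 0.15, FDR = 0.56), Suv39h1 (0.06 ± 0.17, FDR = 0.77) and Suv39h2 (-0.15 ± 0.16, FDR = 0.44) did not pass. Ehmt1 passed without untagged IAA replicate 1 (edgeR FDR = 0.031). DESeq2 also called 6 lower and 0 higher, and 0 were higher at an unadjusted p under 0.05.

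Between tagged EtOH and untagged IAA, which differ in line, tag and treatment together, 0 members were called in either direction by edgeR or DESeq2, where 1.27% of all genes were called higher in tagged EtOH and 2.29% lower. At an unadjusted p under 0.05 there were 4: Ehmt2 (0.31 ± 0.13, edgeR FDR = 0.18) and Suv39h1 (0.34 ± 0.15, FDR = 0.20) were on the higher side, and Suv39h2 (-0.36 ± 0.14, FDR = 0.17) and Cbx1 (-0.21 ± 0.08, FDR = 0.15) on the lower. Without 11D EtOH replicate 2, 1 member passed as higher (Ehmt2, edgeR FDR = 0.029) and 1 as lower (Suv39h2, FDR = 0.049). The tagged IAA libraries overlapped the untagged ones for both of these genes.

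The authors' deposited table of IAA against EtOH, made with DESeq2, gave 5 of the 10 genes an adjusted p under 0.05, and all 5 were lower. In the authors' deposited table the log2 fold changes of these were -0.55 for Trim28, -0.41 for Ehmt2, -0.56 for Cbx1, -0.76 for Cbx3 and -0.74 for Cbx5. The authors' deposited table gave Setdb1 an adjusted p of 0.23, Ehmt1 0.14, Atf7ip 0.15, Suv39h1 0.47 and Suv39h2 0.098, so the small drops called by edgeR were not called there.

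Scaling bears on the smaller changes, and within single lines and against untagged IAA also on some of the larger ones. TMM and RLE factors left the median fold change of all genes at 0.03 and 0.07, while scaling by library totals alone put it at 0.36 and called 7713 genes higher and 2851 lower. On that scale, in the fit over both tagged lines, Trim28 (-0.28), Cbx1 (-0.28), Cbx3 (-0.49) and Cbx5 (-0.46) were still called lower by edgeR. Setdb1, Atf7ip, Ehmt1 and Suv39h1 turned to small positive values of 0.05 to 0.09, all under the median of all genes, and none of these 4 passed. Suv39h2 was at 0.56 and passed as higher (edgeR FDR = 0.0047). Over the 17 alternative settings for this comparison, Trim28, Cbx1, Cbx3 and Cbx5 passed in all 17, Ehmt1 and Ehmt2 in 12 each, Atf7ip in 9, Setdb1 in 4, Suv39h1 in 2 and Suv39h2 in 1. In other comparisons, library totals alone also lost calls of the larger drops. Those lost in 11D were Trim28 (-0.20, edgeR FDR = 0.16) and Cbx1 (-0.13, FDR = 0.38). Cbx3 in 10E (-0.51) and Trim28 against untagged IAA (-0.18, edgeR FDR = 0.12) were lost too.

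**Figure D5:**
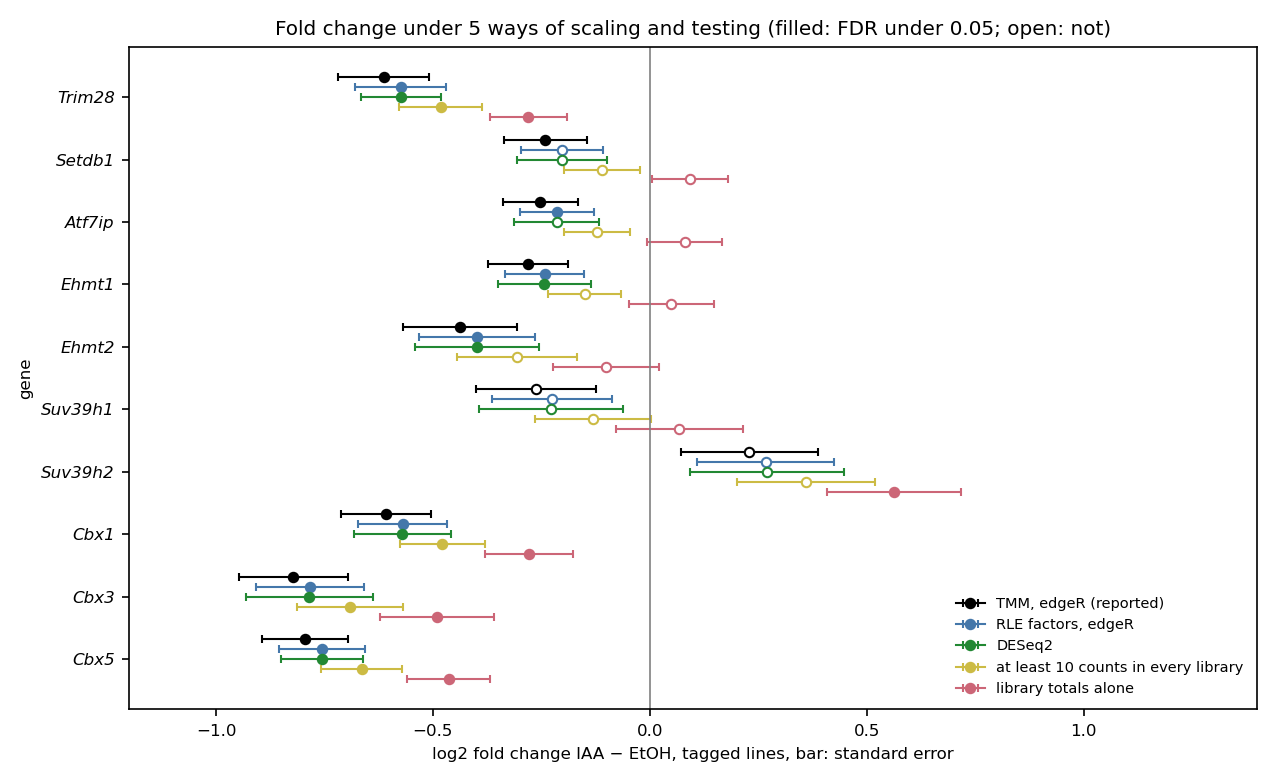
Log2 fold change of IAA against EtOH in the tagged lines, with its standard error, for each gene under 5 settings: TMM factors in edgeR as reported, RLE factors in edgeR, DESeq2, a filter of at least 10 counts in every library, and library totals without scale factors. Filled points passed an FDR of 0.05; those of Trim28, Cbx1, Cbx3 and Cbx5 are filled and negative under all 5.

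Around these 10 genes, other genes of the pathway were read from lists set by their known role, with earlier results of these data known. Of the list genes named below, the exons of Prdm16, Tasor, Tasor2, Mis12 and Kmt5b overlap those of another gene, so their counts may hold reads of the partner. Of 7 further H3K9 methyltransferase and cofactor genes, 3 were called higher after IAA, 1 lower and 3 neither, with a median log2 fold change of 0.26 against 0.03 over all genes; library totals alone gave 5 higher and 0 lower. Setdb2, a SETDB1 relative, rose from 24.2 ± 3.83 to 41.7 ± 0.242 CPM (0.75 ± 0.13, edgeR FDR = 1.4e-04), and Prdm2, which also encodes an H3K9 methyltransferase, rose by 0.39 ± 0.09 (FDR = 0.0012). Prdm16 fell by 0.71 ± 0.24 (edgeR FDR = 0.020), a call that DESeq2 did not make. Over all genes tested, 29.3% were called higher and 28.1% lower after IAA. For 7 genes the counts are close to these shares, and a difference from the 10 members was not tested.

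In the HUSH complex and MORC list, 2 of 6 genes were called higher and 3 lower, with a median of -0.05. Over all genes, 29.3% were called higher and 28.1% lower. Tasor, which encodes the scaffold of HUSH, fell by 0.89 ± 0.11 (edgeR FDR = 3.5e-06), and Morc3, an ATPase gene, fell by 0.88 ± 0.09 (FDR = 1.0e-06). Tasor2 rose by 0.78 ± 0.11 and Pphln1, which encodes periphilin, by 0.30 ± 0.12 (edgeR FDR = 1.3e-05 and 0.040).

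HP1 partner and heterochromatin genes were mostly lower: 17 of the 26 tested were called lower, 3 higher and 6 neither, with a median of -0.35 (10 lower and 6 higher with library totals alone). With TMM factors, 28.1% of all genes were called lower and 29.3% higher. Atrx, the chromatin remodeller that deposits histone H3.3 with DAXX, fell from 501 ± 66.7 to 160.2 ± 7.31 CPM (-1.68 ± 0.10, edgeR FDR = 3.2e-09), and Uhrf1, which couples DNA methylation to replication, fell by 1.29 ± 0.10 (FDR = 3.4e-08). Mis12, a kinetochore gene, rose by 0.64 ± 0.11 and Senp7, a SUMO protease gene, by 0.59 ± 0.17 (edgeR FDR = 8.0e-05 and 0.0080). Both Atrx and Uhrf1 changed more than any of the 10 members.

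The genes of the enzymes that remove the mark were mostly lower, while 28.1% of all genes were called lower and 29.3% higher. Of 11 H3K9 demethylase genes, 9 were called lower and 1 higher, with a median of -0.42: Jmjd1c fell by 0.89 ± 0.09 and Kdm4c by 0.92 ± 0.10 (edgeR FDR = 5.5e-07 and 9.4e-07). Kdm4d was called higher by edgeR at levels near 0 (0.137 ± 0.116 to 0.735 ± 0.430 CPM; 2.22 ± 0.85, FDR = 0.034), a call that DESeq2 did not make. Of the 3 H4K20 methyltransferase genes, Kmt5c, whose enzyme sets H4K20 trimethylation at heterochromatin, fell by 0.53 ± 0.10 and Kmt5a, whose enzyme sets monomethylation, by 0.44 ± 0.09, and Kmt5b rose by 0.49 ± 0.10 (edgeR FDR = 3.0e-04, 5.5e-04 and 6.0e-04). With library totals alone 0 of these 3 genes were called lower, and 5 of the demethylase genes were.

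Among 13 KRAB zinc finger genes tested, whose products bring TRIM28 to DNA, 9 were called lower, 1 higher and 3 neither, with a median of -0.49. The shares over all genes were 28.1% lower and 29.3% higher. Zfp57, which protects imprints, fell from 452 ± 82.9 to 173 ± 18.5 CPM (-1.34 ± 0.11, edgeR FDR = 8.3e-08) and Rex2 fell by 1.70 ± 0.16 (FDR = 3.6e-07), while Zfp819 rose by 0.60 ± 0.17 (FDR = 0.0069).

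A further list holds genes known to be held silent by H3K9 methyltransferases in ES cells. Over all genes, 29.3% were called higher and 28.1% lower after IAA. Of the 30 listed, 23 passed the filter on low counts, and 19 of these were called higher after IAA and 0 lower (DESeq2 also gave 0, as did an unadjusted p under 0.05). A silent gene that passed the filter through the IAA libraries had to differ, and the list was chosen with earlier results of these data known. It also holds several genes each of the Zscan4 and Usp17l families, which are not separate observations. The count is therefore given as a description. Not all listed genes were silent with EtOH: Stk31 was at a mean of 13.8, Naa11 at 13.7 and Dazl at 8.47 CPM. With IAA, Stk31 (25.6 CPM) and Dazl (14.7 CPM) were near their untagged IAA levels of 23.1 and 16.8 CPM. Against untagged IAA, 17 of 23 listed genes were called higher and 1 lower. Usp17le rose from 3.59 ± 2.62 to 37.0 ± 9.78 CPM and was at 2.18 ± 0.596 CPM in untagged IAA (3.53 ± 0.23 against EtOH, edgeR FDR = 8.0e-09), and Usp17la rose by 3.00 ± 0.26 (FDR = 1.3e-07). Both belong to a family of near-identical genes, and how reads were shared among its members is uncertain.

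Against untagged IAA the same lists gave 3 higher and 1 lower of 7 for the further methyltransferases, 0 and 3 of 6 for HUSH and MORC, 2 and 17 of 27 for HP1 partners, 1 and 8 of 10 for demethylases, 0 and 1 of 3 for H4K20 methyltransferases, 1 and 11 of 13 for KRAB genes, and 17 and 1 of 23 for the genes listed as held silent. Over all genes tested in that comparison, 27.9% were called higher and 27.8% lower. Between tagged EtOH and untagged IAA, edgeR called 0 genes higher in each of these lists. In the same order, 0 of 7, 2 of 6, 5 of 27, 1 of 10, 0 of 3, 0 of 13 and 3 of 23 were called lower. Over all genes 2.29% were called lower and 1.27% higher there. DESeq2 called 3 of the KRAB genes lower in this comparison.

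Profiles over the 10 libraries were compared by the root mean square (RMS) difference of log2 CPM, each gene centred on its own mean. Among the members, Cbx3 and Cbx5 were each other's nearest (RMS 0.15 log2 units), as were Setdb1 and Atf7ip (0.098), while Cbx1 was nearest to Cbx3 (0.16). Ehmt1 was nearest to Atf7ip (0.11), Trim28 to Ehmt1 (0.19), Suv39h1 to Ehmt1 (0.20), Ehmt2 to Trim28 (0.21) and Suv39h2 to Setdb1 (0.27), the loosest match of the 10. Over 9190 other genes with a mean of at least 10 CPM, a closer profile than any member's was found for each gene: Sf3a1 for Trim28 (0.046), Cstf2t for Setdb1 (0.041), Snx4 for Atf7ip (0.051), Kat14 for Ehmt1 (0.039), Snrpa for Ehmt2 (0.087), Sertad3 for Suv39h1 (0.11), Anapc4 for Suv39h2 (0.11), Mycbp2 for Cbx1 (0.061), Spice1 for Cbx3 (0.070) and Cbl for Cbx5 (0.059). With so many candidates a close match is a description only.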

How the data were processed

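Values analysed are raw read counts per gene symbol, whole numbers that the authors deposited as 1 table without normalization. Per the submitters' processing notes, STAR, deepTools and mm10 were used. For the read counter, annotation, strand setting and versions, the sources used here give nothing. The authors' deposited comparison table, used for description only, gives a mean signal (counts divided by size factors), log2 fold changes with errors, a Wald score, and p-values, raw and adjusted, per the file headers. Which libraries entered it is not given in the sources used here.

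The table has 10 library columns for 11 labelled samples, and the design text names a further one, so 7 tagged libraries entered where the plan assumed 8. Columns carry the codes 10E, 11D and TIR1, and 10E and 11D could not be matched to clone numbers. TIR1 was read as untagged, since no other code lacks EtOH columns or has an IAA replicate 3. The labels do not say that replicates are separate cultures; a p-value therefore measures only the spread of these samples, possibly technical. The libraries of each pair of replicates differed beyond sampling noise, with chi-square over its degrees of freedom at 3.05 to 28.9. Depth was 3100127 to 13510163 counts. Counting error alone gives a coefficient of variation of 11.3% at the lowest member count, 78, and of 4.32% to 9.41% for Cbx3 in tagged IAA, so it is not small for genes of low count.

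Counts were tested with edgeR 4.0.16 in R 4.3.3 (quasi-likelihood F test after TMM scaling, genes kept by filterByExpr on groups of line and treatment, FDR under 0.05), with line as a term for IAA against EtOH, 1 coefficient per line and treatment otherwise, and all 10 libraries for the untagged comparisons. DESeq2 1.42.0 and other scalings, filters and sample sets were the alternatives; 1 filter, on groups of tag and treatment, was added after seeing the data. The standard error is the absolute log2 fold change over the square root of F. Log2 ratios added 0.5 CPM. Levels per kb used the merged length of all annotated exons of a gene in GENCODE vM21 (GRCm38), and promoters came from the RefSeq table. The procedure was tested on simulated data. Members and lists were chosen with earlier results of these data known. Named genes were all 10 members, Supt16, for each list at most 2 called genes in each direction, taken by smallest FDR, and the nearest profiles, leaving out predicted genes, Riken clones and pseudogenes. Stk31, Naa11 and Dazl were named in addition for their level with EtOH. Replicate numbers were not taken to pair the libraries, and the labels do not say whether they do. Protein sequences were not used here.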

Additional observations from a re-analysis of the deposited data

Results flagged for a closer look

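Of 17 tests for a library far from the others of its group, 1 was positive, and chance alone flags about 1 group in 20. Setdb1 in tagged EtOH stood at 251, 256, 258 and 297 CPM, and the gap of the highest library, 10E EtOH replicate 2, to the next took 0.836 of the whole range. Without that library Setdb1 was not called lower after IAA (edgeR FDR = 0.12).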

How the results depend on the processing

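For IAA against EtOH, Trim28, Cbx1, Cbx3 and Cbx5 kept their direction and call in all 17 alternatives, with log2 ranges of -0.66 to -0.28, -0.69 to -0.28, -0.94 to -0.49 and -0.88 to -0.46. Library totals alone gave 4 members lower and 1 higher, and 2851 genes lower over all genes, 3 lower in line 10E, 2 lower and 1 higher in line 11D, and 3 lower against untagged IAA; it turned the sign of Setdb1 (0.093), Ehmt1 (0.050), Suv39h1 (0.068) and Atf7ip (0.080), of Ehmt2 in 10E (0.038) and Setdb1 in 11D (0.18), and against untagged IAA of Ehmt1 (0.091), Ehmt2 (0.19), Suv39h2 (0.14) and Atf7ip (0.0064). On that scale the further methyltransferases had 5 higher and 0 lower, HP1 partners 6 higher and 10 lower, demethylases 5 lower and H4K20 methyltransferases 0 lower; the causes were not tested. DESeq2 gave 0 lower for the further methyltransferases and 0 higher for demethylases. A minimum of 10 counts in every library gave 4 members lower and 3477 genes higher, with fewer genes tested (11546).

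Leaving out 1 library gave 5 to 8 members lower, the lowest count without 10E IAA replicate 1, 11D EtOH replicate 2 or either 11D IAA library. In line 11D it gave 2 to 6 lower and 0 to 1 higher, the 1 without 11D EtOH replicate 2. It gave 0 to 1 higher for 10E against 11D in EtOH, and 0 to 1 higher and 0 to 1 lower for tagged EtOH against untagged IAA. Against untagged IAA, Suv39h1 ranged from -0.037 to 0.27 and Suv39h2 from -0.18 to 0.019. The ratio differences ranged from -0.045 to 0.055 for Setdb1 to Atf7ip and from -0.0024 to 0.11 for Cbx5 to Cbx3. Fits of line 10E and of the interaction without the 1 10E IAA library could not be made.

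With the replicate block, 7 members were lower (Setdb1 was lost, edgeR FDR = 0.052) and 5047 genes were higher and 4872 lower. In line 10E 4 members were lower, Setdb1 again being lost (FDR = 0.054), and no other call of a member changed. The numbers were not taken as pairs: the difference between replicates 1 and 2 correlated at 0.21 between 11D EtOH and 11D IAA and at -0.19 between 10E and 11D in EtOH, across genes.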

Other observations

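Genes that overlap the members or resemble them were counted at low levels in part. Gm14820, antisense to Suv39h1, had 61 to 235 counts per library, near those of Suv39h1 itself (84 to 408). Dclre1c, opposite Suv39h2, had 47 to 261 counts, and Cers2, opposite Setdb1, 290 to 1401. The 11 Cbx3 pseudogenes together were at a mean of 0.336 CPM in tagged EtOH, 1.15 CPM in tagged IAA and 0.398 CPM in untagged IAA, with 1 to 20 counts per library, while Cbx3 itself was lower in tagged IAA.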
